A study of Homo sapiens with 12 samples.

Results

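To find what INZ changed in HCT116 cells whether or not they carried p53, the 6 INZ arrays were compared with the 6 DMSO arrays with genotype as a covariate, and the features that moved alike in both genotypes are described here. HCT116 is a human colon cancer cell line. It was used as HCT116 p53+/+, which carries wild-type p53, and as HCT116 p53-/-, which lacks active p53 and is the same line by its label, so that the genotypes also differ in whatever else separates these 2 lines. Cells of each genotype received DMSO, the vehicle, or 4 μM INZ (Inauhzin), and total RNA was taken after 18 hours. Each of the 4 groups had 3 arrays, labelled as biological replicates, and each array was hybridised with 1 colour (Cy3). A feature was called when limma's adjusted p in the additive fit was under 0.05, and counted as changed alike when, besides, the INZ differences of both genotypes had the same sign and the smaller was at least 0.5 of the larger. By this rule 2139 of the 45033 features were members, 1181 higher and 958 lower with INZ, and 30 and 98 features were past the threshold in each genotype alone. Gene names were known for 504 of the higher and 470 of the lower members, and with 1 feature per gene they stand for 449 and 430 of 17185 genes.

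INZ is a small molecule that activates p53, for which ribosomal stress and acetylation of p53 have been described as routes, and the deacetylase SIRT1 and the purine enzyme IMPDH2 are known as its targets. Activated p53 switches on genes of arrest, repair and death, and p53-/- cells lack this arm of the response. Compounds can also act on cells through receptors for foreign chemicals. The aryl hydrocarbon receptor (AHR) binds flat aromatic molecules, pairs with ARNT, and turns on genes such as CYP1A1. Cells also answer growth signals with a set of immediate early genes, among them the NR4A nuclear receptors, and with the DUSP phosphatases and SPRY proteins that restrain these signals.

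The deposited values are RMA intensities, which were log2-transformed, so differences below are log2 differences between INZ and DMSO, and a difference of 1 is a doubling. Colon epithelial markers were present (KRT8 at a mean log2 intensity of 14.54, EPCAM at 11.67), with 6 of 12 below the median feature of the array (6.41), and 0 of 12 passed limma's test with INZ (1 at an unadjusted p under 0.05). Arrays of a group correlated at 0.909 to 0.975. A principal component analysis put 41.3% of the variance on 1 axis, with p53+/+ DMSO replicate 1 at one end (-175.7) and p53+/+ INZ replicate 3 (92.4) among the p53-/- INZ arrays (70.6 to 104.1) at the other. The lower quartile of the intensities was 44.2 to 47.1 in the INZ arrays and 45.9 to 49.5 in the DMSO arrays, so the low end of the scale moved with treatment, and in p53-/- cells its ranges did not overlap (44.2 to 45.1 with INZ, 45.9 to 46.6 with DMSO). Its part in the results was not tested other than by a fit with it as a covariate, which is given beside the counts.

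Over both genotypes INZ raised 1439 features (3.2% of those tested) and lowered 1186 (2.63%), and 10071 had an unadjusted p under 0.05. Of these 2625 calls (5.83%), 2139 (81.5%) met the rule for a like change in both genotypes, which is 4.75% of all features, 2.62% for the risers and 2.13% for the fallers. By gene, 6.27% of 17185 were called, 3.19% higher and 3.07% lower, which are the shares to set beside each gene list below. Like risers were 2.61% and like fallers 2.5% of genes. The risers had a median difference of 1.19 (1.17 in p53+/+ and 1.20 in p53-/- cells) and the fallers of -1.02 (-0.99 and -1.08), where the median of all features was -0.04. At least 2-fold changes were seen in 867 risers and 508 fallers, and at least 4-fold changes in 53 and 43. Below the median feature lay 142 risers (12.02%) and 68 fallers (7.10%). The INZ arrays lay entirely above the DMSO arrays within both genotypes for 773 of 1181 risers (65.5%) and entirely below for 808 of 958 fallers (84.3%), beside 3.04% and 3.34% of all features (6.38% either way). These values come from the contrast that chose the members and describe them.

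The remaining 486 calls moved the same way in both genotypes with unequal size, 171 more in p53+/+ and 315 more in p53-/- cells. The difference of the INZ effect between the genotypes was past the threshold in limma's interaction for 8 features (0.0178%), and 2119 (4.71%) had an unadjusted interaction p under 0.05. Risers moved more in p53+/+ cells in 593 cases and in p53-/- cells in 588, while fallers moved more in p53-/- cells in 635 of 958. Just inside the limit of 0.5 were HADH (-1.10 in p53+/+, -0.55 in p53-/- cells), MROH5 (-1.46, -0.73) and TBCCD1 (0.48, 0.95), and just outside were BRD9 (-1.45, -2.90), ENKD1 (-0.51, -1.01) and PCK2 (-1.43, -2.87). Just inside the adjusted p of 0.05 were SCAMP1 (0.04997), SLC25A13 (0.04995) and TKT (0.04992), and just outside MON1B, CPNE3 and ID3 (each 0.0502).

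**Figure D1:**
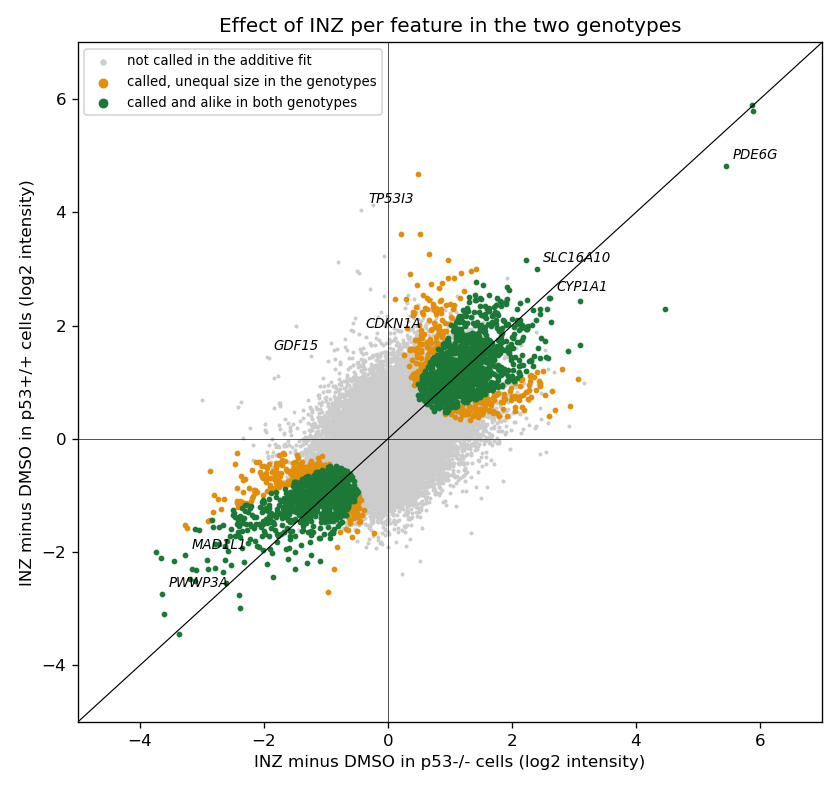
INZ minus DMSO in log2 intensity for each of 45033 features, in p53-/- cells (horizontal axis) and p53+/+ cells (vertical axis), with the line of equal change. The 2139 features called and alike in both genotypes (green) lie along the line, PDE6G at 4.82 in p53+/+ and 5.45 in p53-/- cells, while TP53I3 (4.04 and -0.43) and GDF15 (1.44 and -1.95) lie off it. For the green features, closeness to the line follows from the rule that chose them.

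How many members there were depended on the size limit and on single arrays. With the smaller difference at least 0.75 of the larger, 666 risers and 485 fallers remained. Leaving out each array in turn gave 583 to 1560 risers and 587 to 1120 fallers. The risers dropped by over 1.5 times when p53+/+ INZ replicate 3 was left out (586), when any p53-/- DMSO array was (762, 583 and 739 for replicates 1 to 3), and when replicate 1 or 3 of p53-/- INZ was (620 and 624). The fallers did so without the third p53+/+ INZ array (611), the second p53-/- DMSO array (587) or the third p53-/- INZ array (599). With the arrays' lower quartile added to the fit as a covariate, 128 risers and 302 fallers were found, and the median difference of the 1181 risers went from 1.19 to 0.71 and that of the 958 fallers from -1.02 to -0.80. All 2139 members kept their direction in these fits.

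The 12 genes each of largest rise and largest fall were picked from members whose INZ and DMSO arrays do not overlap within either genotype. For these genes the lack of overlap follows from the choice and only describes them. PDE6G rose most among the named genes. It encodes the inhibitory gamma subunit of PDE6, the cGMP phosphodiesterase of rod photoreceptors, best known from the retina. PDE6G read 6.64, 6.51 and 6.91 on the log2 scale in p53+/+ cells with DMSO and 11.47, 11.92 and 11.12 with INZ, and 5.87, 6.04 and 6.57 against 11.71, 11.23 and 11.90 in p53-/- cells. Every INZ array lay far above every DMSO array, and with DMSO the gene lay near the median feature. The difference was 5.14, or 35.2-fold (95% interval 25.2 to 49.0), with limma's adjusted p = 5.6e-09. PDE6G was the 1 riser among the 6 PDE6 genes measured, where 3.19% of all genes rose. The catalytic subunits PDE6A (-0.11, adjusted p = 0.797) and PDE6B (-0.39, 0.322) and the cone gamma subunit PDE6H (-0.42, 0.313) did not pass limma's test. Only 2 features rose more than PDE6G, BC106884 (5.89) and BX537414 (5.83), which are not named in the tables used here.

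CYP1A1, a cytochrome P450 that oxidises aromatic hydrocarbons and the textbook target of AHR, rose 5.87-fold. Its 250 bases upstream of the start (chr15:74725529-74725778, minus strand, GRCh38.p14, from RefSeq) are shown. The letters of the receptor's core motif, GCGTG, searched on both strands, occur in them once, in capitals. A match of these letters does not mark a site that the receptor uses, and binding was not measured.
CYP1A1: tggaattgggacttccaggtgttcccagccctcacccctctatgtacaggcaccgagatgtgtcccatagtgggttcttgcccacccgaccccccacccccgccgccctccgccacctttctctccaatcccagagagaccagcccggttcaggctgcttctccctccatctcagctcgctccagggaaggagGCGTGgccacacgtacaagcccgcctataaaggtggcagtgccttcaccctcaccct
In p53+/+ cells the log2 intensities of CYP1A1 were 6.10, 6.46 and 5.71 with DMSO and 8.21, 8.22 and 9.31 with INZ, and in p53-/- cells 6.69, 6.69 and 5.63 and 8.83, 8.80 and 9.23. As the choice of these genes required, every INZ array lay above every DMSO array of its genotype. The difference was 2.55 (interval 2.0 to 3.10, limma's adjusted p = 0.000124), 2.49 in p53+/+ and 2.61 in p53-/- cells. Of 9 genes on the AHR list, 1 rose and 0 fell, where 3.19% of all genes rose and 3.07% fell. The partner ARNT was close to the threshold (1.04, adjusted p = 0.0535), whereas AHR itself (-0.84, 0.197) and its further targets CYP1B1 (0.52, 0.265) and TIPARP (0.09, 0.869) did not pass. The motif is common. It was found in 39.6% of 13780 promoters of measured genes, in 47.8% of 366 riser promoters and in 49.3% of 335 faller promoters, beside a median GC content of 62.8%, 65.6% and 67.6%, so that both kinds of member had GC-richer promoters than measured genes as a whole.

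SLC16A10, a transporter of aromatic amino acids, had the next largest rise of a named gene. Log2 intensities of SLC16A10 with DMSO were 5.0, 6.03 and 7.23 for p53+/+ cells and 6.52, 5.99 and 6.03 for p53-/- cells, and 8.99, 8.83 and 9.44 and 8.84, 8.55 and 8.34 with INZ. The DMSO arrays of p53+/+ cells were widely spread, and even the highest lay under the INZ arrays. The difference was 2.70 (6.50-fold, interval 4.11 to 10.3, limma's adjusted p = 0.000384). The further genes among the 12 that rose most code for a mixed set of proteins. They were AOC3, an amine oxidase of the cell surface (2.37), TAF5, a subunit of the general transcription factor TFIID (2.35), STX1A, a syntaxin of vesicle fusion (2.32), GEM, a small GTP-binding protein (2.20), E2F8, an atypical E2F that represses transcription (2.19), ASIC3, a proton-gated cation channel (2.17), PARP2, a poly(ADP-ribose) polymerase of DNA repair (2.16), ADAMTSL4, a protein of the extracellular matrix (2.13), and ALDH1A3, which makes retinoic acid (2.13). Their limma adjusted p lay between 0.000405 and 0.0165. AOC3, STX1A, E2F8, PARP2 and ALDH1A3 missed the threshold with the lower quartile covariate (adjusted p 0.0809 to 0.50), and kept it in the other 22 of 23 alternatives. AOC3 lay at 6.16 and 6.06 in p53+/+ INZ replicates 1 and 2 and at 8.98 in replicate 3, so its size in p53+/+ cells rests largely on 1 array.

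**Figure D2:**
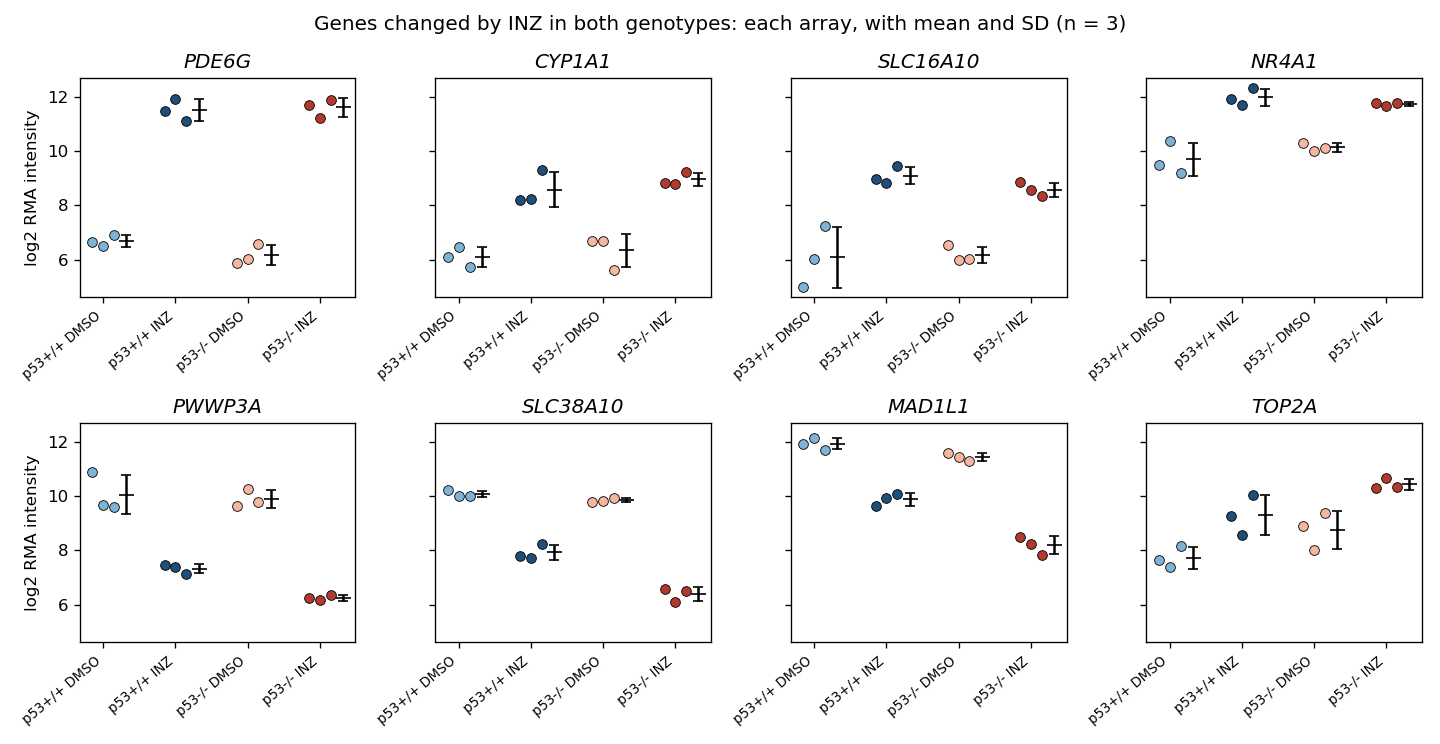
Log2 RMA intensity of 8 genes in each of the 12 arrays (points), with the mean and SD of each group (n = 3). INZ arrays lie above the DMSO arrays of their genotype for PDE6G, CYP1A1, SLC16A10, NR4A1 and TOP2A and below them for PWWP3A, SLC38A10 and MAD1L1. Except for NR4A1 and TOP2A, the choice of the genes required this.

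The nuclear receptors of the NR4A family, which respond within hours to growth signals and stress, rose together. NR4A1 rose 3.85-fold, NR4A2 2.72-fold and NR4A3 2.28-fold. On the log2 scale the 3 arrays of p53+/+ cells gave 9.50, 10.39 and 9.21 for NR4A1 with DMSO and 11.93, 11.71 and 12.31 with INZ, and those of p53-/- cells 10.31, 10.0 and 10.11 and 11.77, 11.67 and 11.78. No DMSO array of either genotype reached an INZ array. The difference was 1.94 for NR4A1 (limma's adjusted p = 0.000407), 1.44 for NR4A2 (0.00443) and 1.19 for NR4A3 (0.0136). They belong to a list of 26 genes of the growth factor response and its feedback, which was put together after values had been seen and is a description only, in which 7 rose and 2 fell, all 9 alike in both genotypes, with a list median of 0.16. Among 17185 genes, 3.19% rose and 3.07% fell. The dual specificity phosphatases DUSP5 (2.02), DUSP4 (1.91) and DUSP1 (0.94), which switch off MAP kinases, were risers, and SPRY4 (-0.96), a brake on receptor tyrosine kinases, and PHLDA1 (-0.90) fell. DUSP5 read 7.60, 8.87 and 9.42 on the log2 scale in p53+/+ cells with DMSO and 10.53, 9.96 and 12.38 with INZ, and 9.07, 8.60 and 9.10 against 10.61, 10.47 and 10.84 in p53-/- cells. DUSP4 rested on fewer arrays, since it read 5.91 in p53+/+ DMSO replicate 1 against 9.17 to 9.70 in the other DMSO arrays, and its call held in 5 of 12 fits that left out 1 array. With the lower quartile covariate only GEM and NR4A1 of these 9 genes kept the call. The others missed it, with limma's adjusted p from 0.0587 (SPRY4) to 0.754 (DUSP4), NR4A2 (0.131) and NR4A3 (0.113) included. The immediate early genes FOS (0.21, adjusted p = 0.619), EGR1 (-0.94, 0.111) and MYC (-0.02, 0.974) did not pass in the main fit.

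**Figure D3:**
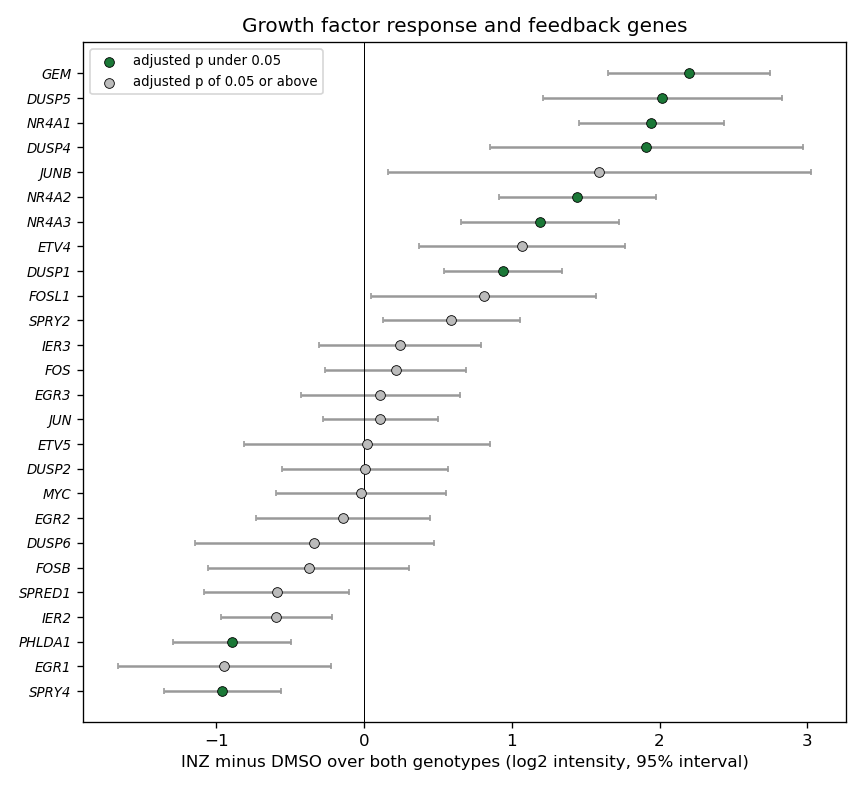
INZ minus DMSO over both genotypes (log2 intensity, with the 95% interval of the additive fit) for 26 genes of the growth factor response and its feedback. The 3 NR4A genes, GEM, DUSP1, DUSP4 and DUSP5 lie above 0 and SPRY4 and PHLDA1 below it with an adjusted p under 0.05 (green), and FOS and MYC lie near 0.

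Among genes of mitosis and DNA replication, risers outnumbered fallers. Of 34 measured genes of the spindle checkpoint and mitosis, 9 rose and 1 fell, and 27 had a difference above 0. The list median was 0.51 (0.66 in p53+/+, 0.34 in p53-/- cells). Over all genes 3.19% rose and 3.07% fell, 47.2% had a difference above 0, and the median was -0.03. Of 33 genes of DNA replication, 8 rose and 1 fell, with a median of 0.72. All 10 mitosis calls and 5 of the 9 replication calls were alike in both genotypes. Shown are 250 upstream bases of CDK1 (chr10:60778081-60778330, plus strand) and TOP2A (chr17:40417897-40418146, minus strand, both GRCh38.p14 from RefSeq), because promoters of mitotic genes often carry CCAAT boxes and a cell cycle homology region, searched here as CCAAT and TTTGAA on both strands and printed in capitals (ATTGG and TTCAAA are the same letters on the opposite strand).
CDK1: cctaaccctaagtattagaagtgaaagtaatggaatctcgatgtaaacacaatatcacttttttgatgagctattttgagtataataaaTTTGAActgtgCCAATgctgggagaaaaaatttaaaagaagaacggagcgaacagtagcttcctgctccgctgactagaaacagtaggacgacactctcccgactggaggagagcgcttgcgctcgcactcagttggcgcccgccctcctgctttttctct
TOP2A: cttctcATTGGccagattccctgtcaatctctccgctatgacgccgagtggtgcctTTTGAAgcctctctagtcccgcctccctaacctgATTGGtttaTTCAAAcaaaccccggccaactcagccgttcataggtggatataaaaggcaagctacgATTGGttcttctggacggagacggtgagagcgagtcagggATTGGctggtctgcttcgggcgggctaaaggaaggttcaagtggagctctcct
CDK1, the kinase that drives entry into mitosis, rose 3.35-fold (1.74, limma's adjusted p = 0.00388), and TOP2A, the topoisomerase that untangles chromosomes, 3.10-fold (1.63, 0.00423). In p53+/+ cells the log2 intensities of TOP2A were 7.63, 7.38 and 8.15 with DMSO and 9.28, 8.58 and 10.05 with INZ, and in p53-/- cells 8.91, 8.0 and 9.37 and 10.29, 10.68 and 10.34. The groups did not overlap within a genotype, but the highest p53-/- DMSO array lay above the lowest p53+/+ INZ array. Log2 intensities of CDK1 with DMSO were 7.61, 8.86 and 8.95 for p53+/+ cells and 9.89, 9.20 and 10.12 for p53-/- cells, and 10.99, 10.63 and 10.64 and 10.61, 11.39 and 10.84 with INZ. A second CDK1 feature (NM_001786) gave 1.54 (adjusted p = 0.00254). CDK1 held 1 CCAAT and 1 TTTGAA, and TOP2A 4 and 2. CCAAT was found in 34.9% and TTTGAA in 10.6% of promoters of measured genes. For the 57 list members with a promoter the shares were 66.7% and 22.8%, and among the 13 of them that rose, 9 (69.2%) and 6 (46.2%) held them. Over all risers the shares were 36.1% and 10.9%, near those of measured genes. No factor's binding was measured.

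The other mitotic risers were NUSAP1, a microtubule-binding protein of the spindle (1.53), FOXM1, the transcription factor of G2 and M phase genes (1.45), the checkpoint kinases TTK (1.34) and BUB1B (1.14), the kinesins KIF11 (1.27) and KIF23 (1.07), and the kinase AURKA (1.17). KIF11 and KIF23 lost the call without the second p53-/- DMSO array (adjusted p = 0.056 and 0.0556), which left 7 risers. The mitotic cyclin CCNB1 (-0.30, adjusted p = 0.374) and PLK1 (0.33, 0.546) did not pass, so the list did not move as 1 block. In replication, FEN1, the flap endonuclease (1.39, limma's adjusted p = 0.00228), and RFC5, of the clamp loader (1.05, 0.015), kept their call with each array left out. RRM1, of ribonucleotide reductase (0.74), kept it in 9 of 12 such fits, losing it without the second array of p53+/+ DMSO, p53-/- DMSO or p53-/- INZ, and PCNA, the sliding clamp (1.10), in 4, with a change in p53-/- cells (0.52) too small beside that in p53+/+ cells (1.67) for a member. The replicative helicase subunit MCM6 fell (-0.94, adjusted p = 0.0245) and lost its call when the third INZ array of either genotype or the second p53-/- DMSO array was left out (0.0562 to 0.0642). The 8 replication risers became 2 to 9 when 1 array was left out (2 without the second p53-/- DMSO array, 3 without the third p53+/+ INZ or the first or second p53-/- INZ array, 4 without the first DMSO array of either genotype, and 5 without the second p53+/+ DMSO, the third p53-/- DMSO or the third p53-/- INZ array), and with the lower quartile covariate 0 of either list's risers passed, although TOP2A (1.17) and CDK1 (1.46) kept their sign. Total RNA of a culture cannot tell more cells in a phase from more RNA per cell.

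**Figure D4:**
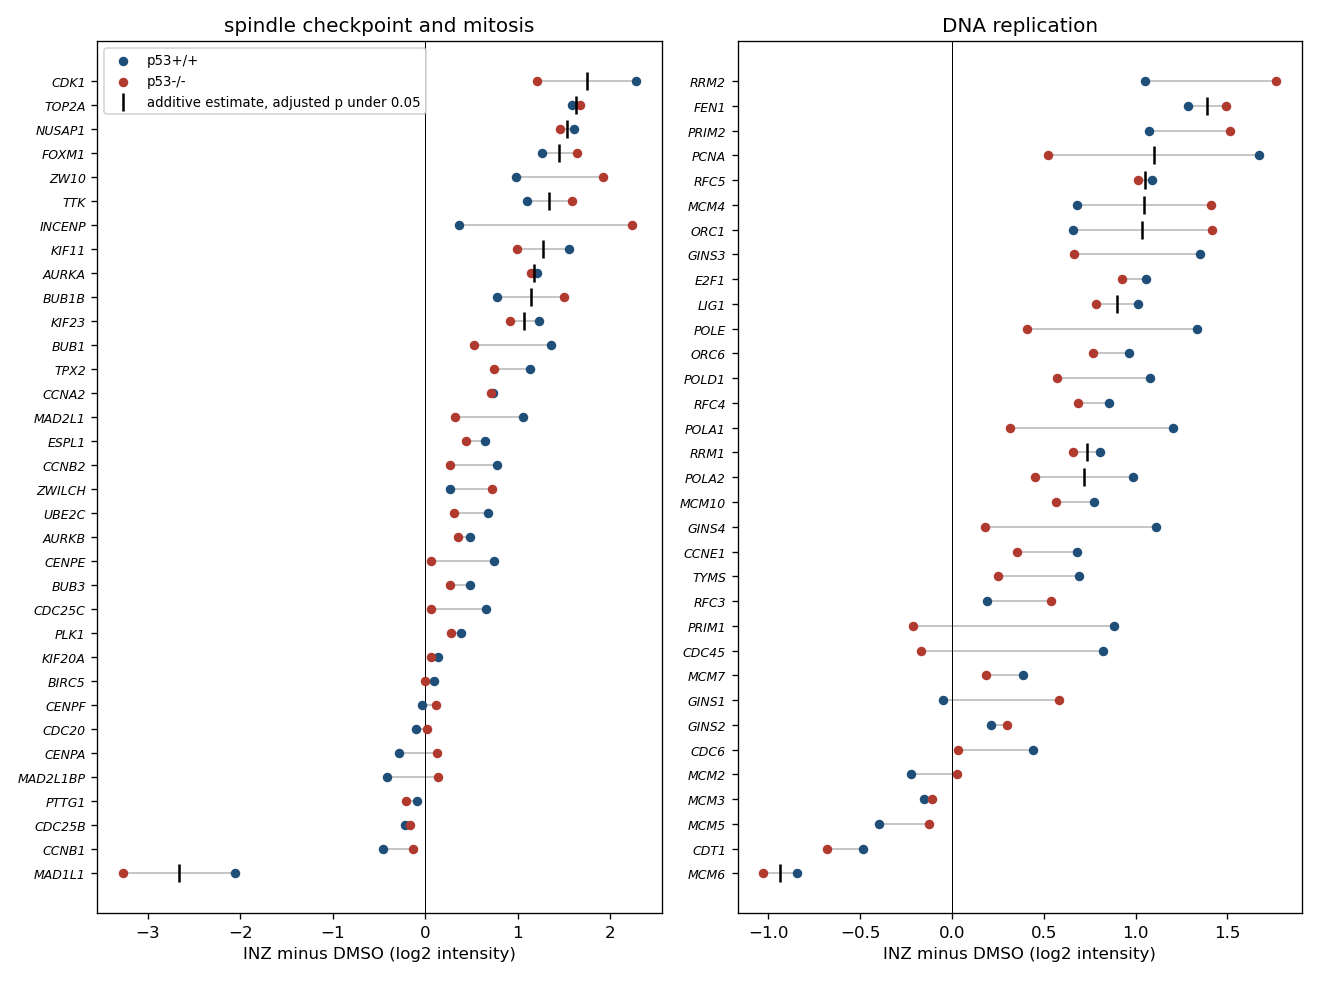
INZ minus DMSO (log2 intensity) in p53+/+ (blue) and p53-/- cells (red) for 34 genes of mitosis and 33 of DNA replication, with a bar at the additive estimate of genes with an adjusted p under 0.05. In the mitosis list 9 genes have a bar above 0 and MAD1L1 (-2.06 in p53+/+, -3.27 in p53-/- cells) has one below.

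Proliferation markers and repair genes, in lists put together after values had been seen, also held risers. Over all genes 3.19% rose and 3.07% fell. Of 14 E2F factors and proliferation markers 5 rose and 0 fell, with a median of 1.02. They were E2F8, the kinase MELK (1.98), MYBL2, a transcription factor of dividing cells (1.45), RB1, which restrains E2F (1.41), and the Ki-67 antigen MKI67 (2.08). MKI67 ranged from 5.05 to 6.75 in p53+/+ DMSO and from 6.92 to 9.94 in p53+/+ INZ arrays, and its call held in 5 of 12 fits with 1 array left out, as it did in 10 for MYBL2 (lost without the second p53-/- DMSO or the third p53-/- INZ array, adjusted p = 0.059 and 0.0608). Of 23 genes of homologous recombination and PARP 5 rose and 1 fell. RAD51AP1, a DNA repair protein, rose 4.26-fold (2.09, limma's adjusted p = 0.0034), beside PARP2, FANCI (1.09), the exonuclease EXO1 (1.05) and FANCD2 (0.70, call kept in 2 of 12 fits). XRCC3, also of recombination repair, fell by 1.68 (adjusted p = 0.00139). With the lower quartile covariate no call of either list passed (limma's adjusted p from 0.0539 for XRCC3 to 0.746 for MKI67). In that fit the difference was 0.36 for MYBL2 and 0.49 for MKI67.

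All 12 genes that fell most kept their call in 23 of 23 alternatives, the lower quartile covariate included, as 7 of the 12 that rose most did. PWWP3A, a chromatin protein with a PWWP domain, had the largest fall of a named gene. Its 250 upstream bases (chr19:1354709-1354958, plus strand, GRCh38.p14, from RefSeq) are shown as the promoter of the leading named faller, with 4 GC boxes, GGGCGG on either strand, in capitals and a GC content of 77.6%.
PWWP3A: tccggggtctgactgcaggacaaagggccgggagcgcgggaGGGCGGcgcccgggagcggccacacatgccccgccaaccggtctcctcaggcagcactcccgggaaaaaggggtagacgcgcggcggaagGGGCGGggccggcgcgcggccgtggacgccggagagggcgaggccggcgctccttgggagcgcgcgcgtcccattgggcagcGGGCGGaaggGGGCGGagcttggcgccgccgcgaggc
GC boxes were found in 57.6% of promoters of measured genes, in 71.9% of faller and 68.6% of riser promoters. On the log2 scale the 3 arrays of p53+/+ cells gave 10.90, 9.67 and 9.60 for PWWP3A with DMSO and 7.45, 7.39 and 7.12 with INZ, and those of p53-/- cells 9.62, 10.25 and 9.80 and 6.24, 6.15 and 6.36. The INZ arrays of p53-/- cells lay near the median feature. The difference was -3.19 (9.12-fold lower, interval 6.22 to 13.4, limma's adjusted p = 2.07e-05). Of 20 genes of PWWP proteins and chromatin readers, 0 rose and 2 fell, where 3.19% of all genes rose and 3.07% fell. The other faller was HDGFL2 (-1.24), which was called but fell by less than 0.5 as much in p53+/+ (-0.81) as in p53-/- cells (-1.68).

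MAD1L1, which brings MAD2 to unattached kinetochores in the spindle checkpoint, fell 6.33-fold while the other called mitotic genes rose. MAD1L1 read 11.94, 12.14 and 11.72 on the log2 scale in p53+/+ cells with DMSO and 9.62, 9.93 and 10.08 with INZ, and 11.60, 11.44 and 11.31 against 8.49, 8.22 and 7.84 in p53-/- cells. INZ arrays lay well below DMSO arrays in either genotype, and lower in p53-/- than in p53+/+ cells. The difference was -2.66 (interval -3.17 to -2.15, limma's adjusted p = 4.98e-05), -2.06 in p53+/+ and -3.27 in p53-/- cells. SLC38A10, of a family of neutral amino acid transporters, fell 6.97-fold. In p53+/+ cells the log2 intensities of SLC38A10 were 10.22, 10.01 and 10.0 with DMSO and 7.80, 7.72 and 8.24 with INZ, and in p53-/- cells 9.78, 9.83 and 9.92 and 6.58, 6.10 and 6.51. A second feature of the gene (NM_138570) fell too (-1.45, adjusted p = 0.0121). Also among the 12 were PYCR3, an enzyme of proline synthesis (-2.84), ARFRP1, a GTPase of the Golgi (-2.60), LRRC26, an auxiliary subunit of BK potassium channels (-2.58), INPP5A, an inositol phosphate phosphatase (-2.53), IMMP2L, a mitochondrial inner membrane peptidase (-2.50), HMGB3, a chromatin protein (-2.37), RXRA, the partner of many nuclear receptors (-2.28), TBX19, a T-box transcription factor (-2.14), and RPUSD1, with a pseudouridine synthase domain (-2.13). Log2 intensities of IMMP2L with DMSO were 9.58, 9.24 and 9.14 for p53+/+ cells and 8.96, 9.02 and 9.02 for p53-/- cells, and 7.01, 6.61 and 7.31 and 6.64, 5.71 and 6.69 with INZ. The IMMP2L groups stood far apart within each genotype. Of the unnamed features, NM_003056 (-3.41) and BC019585 (-3.35) fell most.

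**Figure D5:**
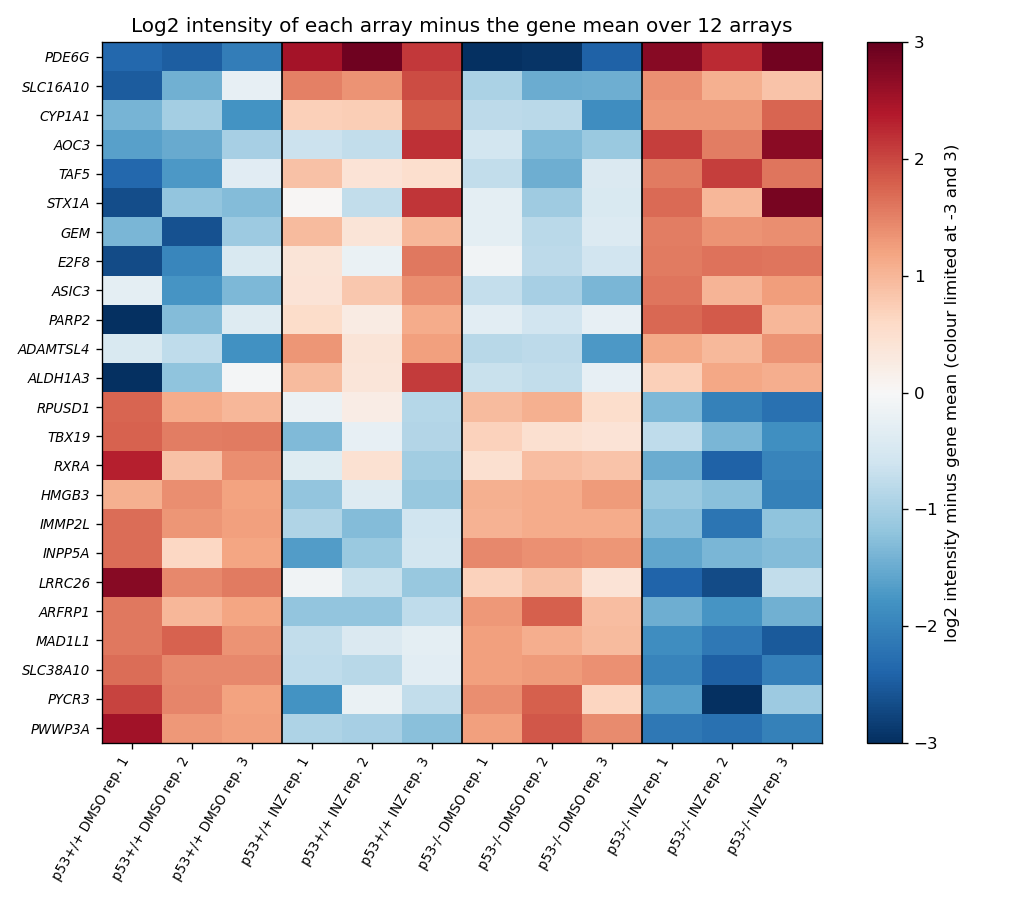
Log2 intensity minus the gene's mean over 12 arrays, for the 12 named members with the largest rise and the 12 with the largest fall (rows, by additive difference) in each array (columns, by group). In p53+/+ cells most risers are lowest in DMSO replicate 1 and highest in INZ replicate 3, while the fallers are more even within a group. PDE6G follows neither pattern, and CYP1A1 is not lowest in DMSO replicate 1.

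Among genes of amino acid supply, SLC7A11, the cystine-glutamate exchanger, fell 4.55-fold (-2.19, limma's adjusted p = 0.00191), ASNS, asparagine synthetase, 3.30-fold (-1.72, 0.00172), and SLC7A5, the exchanger of large neutral amino acids, 3.01-fold (-1.59, 0.00372). On the log2 scale the 3 arrays of p53+/+ cells gave 11.59, 11.22 and 11.76 for ASNS with DMSO and 10.08, 10.31 and 10.53 with INZ, and those of p53-/- cells 11.71, 11.90 and 11.92 and 9.05, 10.36 and 9.43. SLC7A5 lay at 12.69 to 13.74 with DMSO and 11.62 to 12.34 with INZ in p53+/+ cells, and at 12.91 to 14.12 and 11.18 to 11.52 in p53-/- cells. INZ and DMSO arrays did not overlap in either genotype for ASNS and SLC7A5, whereas for SLC7A11 p53+/+ DMSO replicate 1 (8.03) lay below p53+/+ INZ replicate 3 (8.15). Of 28 genes of the integrated stress and unfolded protein response 0 rose and 4 fell, SLC7A11, ASNS, TRIB3 and NUPR1, and the last 2 fell mainly in p53-/- cells (-2.47 and -2.87, beside -0.45 and -0.57 in p53+/+ cells) and are not members. The count of 4 was 2 without the first or second p53-/- DMSO array or the third p53-/- INZ array. The list median was -0.44, 0.08 in p53+/+ and -0.89 in p53-/- cells. Over all genes 3.19% rose and 3.07% fell. The stress factors ATF4 (-0.44, adjusted p = 0.512) and DDIT3 (-0.93, 0.269) did not pass. Of 16 neutral amino acid transporters 0 rose and 2 fell, and of 14 heat shock genes 0 rose and 1 fell, the constitutive chaperone HSPA8 (-1.65, adjusted p = 0.00126), whose second feature gave -0.78 (0.17).

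A list of 11 genes held metallothioneins, small proteins that bind zinc and copper, and the transcription factor MTF1. All had differences below 0, from -1.61 to -0.17, with a median of -0.74. Only MT1M (-1.61, limma's adjusted p = 0.00476) and MT4 (-0.74, 0.0348) passed. Of all genes, 3.19% rose and 3.07% fell, 47.2% had a difference above 0, and the median was -0.03, also for the lists that follow. MT1M read 12.10, 11.61 and 11.63 on the log2 scale in p53+/+ cells with DMSO and 11.02, 10.78 and 9.79 with INZ, and 11.11, 11.49 and 11.77 against 9.45, 10.18 and 8.84 in p53-/- cells. MT1M was below DMSO in each INZ array of its genotype. MT4, near the median feature, moved less in p53-/- cells (-0.46) than the rule asks (-1.01 in p53+/+ cells), and its call was kept in 4 of 12 fits with 1 array left out. In the NRF2 list, of 17 genes 1 rose, the export pump ABCC2 (1.84, kept in 6 of 12), and 1 fell, SLC7A11, while NQO1 (0.45, adjusted p = 0.305) and HMOX1 (0.25, 0.636) did not pass. In cholesterol synthesis 1 of 24 rose and 3 fell. SREBF1, the sterol-sensing transcription factor, fell 2.72-fold (-1.44, adjusted p = 0.00053) and kept its call in each alternative run. LSS (-0.86), PMVK (-0.87) and SC5D (1.27), enzymes of the pathway, kept theirs in 8, 7 and 3 of the 12 fits.

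Lists of processes linked to the known routes of INZ are counted here, where 3.19% of all genes rose and 3.07% fell. Of 31 genes of ribosome biogenesis 1 rose and 3 fell, with a median of -0.03. TAF1D, of the RNA polymerase I factor SL1, fell by 1.41 (limma's adjusted p = 0.00172) and RRP12, a factor of ribosome export, by 0.73 (0.0182), both called with each array left out, while WDR12 (-0.76) and UTP4 (1.62), processing factors, kept their calls in 7 and 2 of 12 such fits. In p53+/+ cells the log2 intensities of TAF1D were 10.76, 10.21 and 10.19 with DMSO and 9.20, 9.39 and 8.74 with INZ, and in p53-/- cells 9.95, 9.90 and 10.28 and 8.59, 8.89 and 8.04. The 3 INZ arrays lay below the DMSO arrays in either genotype. With the lower quartile covariate TAF1D (limma's adjusted p = 0.0635), RRP12 (0.171), WDR12 (0.132) and UTP4 (0.737) missed the threshold. Of 21 purine and GTP synthesis genes 1 rose, PRPS1 (1.10), and 1 fell, APRT (-0.71), kept in 6 and 4 of the 12 fits. IMPDH2 was at -0.54 (95% interval -0.95 to -0.13, adjusted p = 0.106). None of the 7 sirtuins passed limma's adjusted threshold (2 had an unadjusted p under 0.05), and SIRT1 was at 0.03 (interval -0.43 to 0.48, adjusted p = 0.955), an interval that reaches a 1.40-fold rise. Of 32 respiratory chain genes 0 rose and 0 fell by limma's adjusted p, and 7 had an unadjusted p under 0.05.

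The remaining lists held few called genes each. Their counts stand beside 3.19% of all genes risen and 3.07% fallen, and are not read as low. In splicing and RNA binding 0 of 29 rose and 2 fell, SRSF2 (-0.87, kept in 6 of 12 fits) and the cold-inducible CIRBP, which fell by 1.52 in p53+/+ and by 3.27 in p53-/- cells and so was no member. Lysosome and autophagy genes numbered 26, with 0 risen and 1 fallen (ATG7, -0.74, kept in 4 of 12). Of 30 genes of glycolysis and hypoxia 1 rose and 1 fell, EPAS1 (1.37) and PFKFB4 (-0.75), each kept in 5 of 12 fits, and of 29 interferon and antigen presentation genes 2 rose, OAS3 (1.61, kept in 7) and TAP1 (0.99). Housekeeping genes gave 1 riser, GUSB (0.72, kept in 3), and 1 faller, RPL13A (-0.79, kept in 9, lost without the second or the third p53-/- DMSO array or the third p53-/- INZ array), of 15. Mesenchymal (9) and endothelial (5) markers gave 0 calls by limma, and 0 at an unadjusted p under 0.05, with 7 and 5 below the median feature. Of 8 leukocyte markers 1 rose, CD68, a lysosomal membrane protein (1.98, limma's adjusted p = 0.00305), and the 7 others, PTPRC included, lay below the median feature. The summed intensity of the 8 was 393.0 to 519.8 and 539.9 to 1283 in p53+/+ cells with DMSO and INZ, and 423.3 to 497.4 and 694.3 to 745.3 in p53-/- cells.

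Direct targets of p53 gave the contrast to these genes. Of 32 measured p53 targets 5 rose over both genotypes and 0 fell, but only RRM2B, a ribonucleotide reductase subunit, was alike in both (1.15 in p53+/+, 0.97 in p53-/- cells, call kept in 7 of 12 fits). The list median was 1.79 in p53+/+ and 0.03 in p53-/- cells. Over all genes 3.19% rose and 3.07% fell. CDKN1A, the cell cycle inhibitor p21, differed by 1.85 and -0.47 (additive adjusted p = 0.274, interaction adjusted p = 0.126 by limma), and TP53I3 by 4.04 and -0.43 (interaction adjusted p = 0.000982). TCEA3, which encodes the elongation factor TFIIS.h, read 8.65, 8.02 and 8.56 with DMSO and 9.52, 9.61 and 8.85 with INZ in p53+/+ cells, and 7.41, 8.17 and 7.24 and 8.72, 8.27 and 7.64 in p53-/- cells. Its INZ difference was 0.92 and 0.60 (additive 0.76, interval 0.23 to 1.29, limma's adjusted p = 0.0839), so it was not among the members. TCEA3 missed them by the adjusted p, since both differences were above 0 and met the size limit. In p53-/- cells its INZ and DMSO arrays overlapped.

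Genes with several features could disagree. Besides the features that stood for them, 98 genes of the members had 113 others, of which 87 pointed the same way, 51 were called the same way and 3 the opposite way. For DIDO1, a chromatin protein, NM_022105 fell (-1.03, limma's adjusted p = 0.0499) and NM_033081 rose (1.09, 0.0221). No direction can be given for this gene.

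The difference between the genotypes over both treatments was read from the same additive fit. The rule did not use this difference, but both tests share a feature's residual spread. The shares called among members and among all features are therefore not independent of the choice of members. Among the 1181 risers 45 (3.81%) were called lower in p53+/+ than in p53-/- cells and 4 higher, where 0.46% and 0.631% of all features were. The median genotype difference (p53+/+ minus p53-/-) of the risers was -0.51, beside 0.03 over all features. Among the 958 fallers 24 (2.51%) were called higher in p53+/+ and 4 lower, with a median of 0.29. These counts rest on few arrays. Without p53+/+ INZ replicate 3 they were 308 and 100, without p53+/+ DMSO replicate 3 165 and 49, and over all arrays left out in turn 9 to 308 and 8 to 100, and with the lower quartile covariate 3 and 5. The mean log2 intensity of the risers was 7.0, 7.44 and 7.86 in the p53+/+ DMSO arrays and 7.85 to 8.04 in the p53-/- DMSO arrays, and 8.49, 8.41 and 9.21 against 9.12 to 9.32 with INZ. The p53+/+ array with the lowest mean (DMSO replicate 1) had the highest lower quartile (49.5), and the one with the highest mean (INZ replicate 3) the lowest (44.2).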

How the data were processed

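Total RNA of the 4 groups of HCT116 cells was hybridised to 12 NimbleGen arrays with 1 dye. The table deposited by the authors holds the RMA intensity of each feature on a linear scale (16.2 to 61942 as checked on the table). For RMA, version and settings were not given in the sources used here. RMA normalizes between arrays, so a change of total RNA cannot be seen, and the number of arrays limits the precision. Values were log2-transformed without a pseudocount. Gene names came from the platform table for 18188 features and by RefSeq accession for 678 more, and 26167 features were tested without a name. Where a gene had several features (1349 genes), the brightest stood for it.

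Each feature was fitted with limma 3.58.1 in R 4.3.3, with genotype and treatment as terms, on all 12 arrays, with Benjamini-Hochberg adjustment of p-values over 45033 features and a threshold of 0.05. Intervals are 95% intervals. Levels of different features depend on their probes and were not compared. A permutation test of single genes is not given, since arrays that do not overlap within either genotype fix its result. Named are the 12 genes that rose and the 12 that fell most among members whose arrays do not overlap within either genotype, from each list the 4 genes of smallest p, the genes at the limits, CDKN1A, TP53I3, GDF15 and TCEA3. Some genes under this rule are not reported here. Further called or uncalled list members were named after their values were seen. The members and lists were chosen with earlier results of these data known, and 3 lists were added after seeing values. Promoters were the 250 bases before the start in a RefSeq table of GRCh38.p14, matched by symbol for 366 of 449 risers, 335 of 430 fallers and 13780 of 17185 genes. Replicate numbers were not used to pair the arrays in the main fit. Figures were drawn with matplotlib 3.10.9.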

Additional observations from a re-analysis of the deposited data

Results flagged for a closer look

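TP53I3 and GDF15 differed between the genotypes in their response to INZ, by limma's interaction over 45033 features. TP53I3 differed by 4.47 on the log2 scale between p53+/+ and p53-/- cells (4.04 and -0.43, adjusted p = 0.000982), and GDF15 by 3.39 (1.44 and -1.95, adjusted p = 0.00322). For both genes the 3 INZ arrays of p53+/+ cells lay above the 3 DMSO arrays. Groups of 3 arrays were too small for a test of single outlying arrays.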

How the results depend on the processing

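The settings were limma with a trend or made robust, brighter features only, centring, quantile normalization, the mean over a gene's features, 1 mean per group, the replicate number as a block, array weights, each array left out, leaving out the 2 arrays far from their group (the first p53+/+ DMSO and the third p53+/+ INZ array), and the arrays' lower quartile as a covariate. No result changed its direction. The 1439 features higher with INZ became 902 without the 2 distant arrays, 129 with the lower quartile covariate, and 681 to 2136 with 1 array left out, and the 1186 lower ones 336 with the covariate, 645 at 2-fold or more, and 679 to 1370 with 1 array left out. The 1181 like risers became 598 without the 2 arrays, 128 with the covariate, 666 at a size limit of 0.75, 30 with each genotype past the threshold alone, and 583 to 1560 with 1 array left out. The 958 like fallers became 302 with the covariate, 508 at 2-fold, 485 at 0.75, 98 with each genotype alone, and 587 to 1120 with 1 array left out. Without the 2 arrays 672 of the 1181 and 613 of the 958 kept the call, and with the covariate 79 (6.69%) and 204 (21.3%) did. Their median differences with the covariate were 0.71 and -0.80.

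The 45 risers lower in p53+/+ cells became 71 among brighter features, 137 with the replicate block, 260 without the 2 arrays, 190 with array weights, 3 with the covariate and 9 to 308 with 1 array left out. The 24 fallers higher in p53+/+ cells became 46, 40, 67, 54, 5 and 8 to 100 in the same order. The 8 interactions became 15 with a trend, 22 with the covariate and 7 to 10 with 1 array left out. The 9 mitosis risers were 0 with the covariate and 7 to 12 with 1 array left out, and the 8 replication risers 3 without the 2 arrays, 0 with the covariate and 2 to 9. The 4 stress response fallers were 7 with a trend, among brighter features, without the 2 arrays or with 1 mean per group, 8 with array weights, and 2 to 6 with 1 array left out. The cause was not tested. Replicate numbers showed no clear pairing. Correlations of deviations were -0.19 to 0.33 (median 0.01) over 18 same-number pairs and -0.36 to 0.28 (median -0.02) over 36 different-number pairs. With the replicate block 1869 features were higher and 1311 lower, so a shared factor was not excluded. Of 78 called list members 45 kept the call with each array left out and 14 with the covariate. The alternatives for gene lists, interactions and single genes were chosen after seeing the data.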
